A study of Mus musculus with 5 samples.

Results

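Antibody-secreting cells make protein for export, and the genes described here build and guard the machinery for it. The set holds 46 genes of the secretory pathway and the unfolded protein response, chosen by name from the 27998 genes of the count tables, and all 46 were found. They were read in kidney cells of C57BL/6j mice in which pristane, a hydrocarbon oil, had induced a lupus-like disease. Both groups carried this disease: saline mice 1 and 2 received saline, and FMT mice 1 to 3 were given gut microbiota of MRL/MpJ mice by faecal transfer (FMT). The labels give no age, and they describe the samples as tubular epithelial cells, but lymphoid and myeloid cells were present in every library. The series title names microbial inosine and B cell differentiation, and the comparisons ask where the secretory machinery was high and whether it differed after the transplant.

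Proteins bound for export enter the endoplasmic reticulum (ER) through the Sec61 channel, lose their signal peptide, receive sugars, and fold with the help of chaperones and disulfide isomerases. Chains that fail to fold are returned to the cytosol and destroyed, a route called ER-associated degradation. When unfolded chains build up, the sensors IRE1 (gene Ern1), PERK (Eif2ak3) and ATF6 (Atf6) switch on the unfolded protein response, which raises chaperone and degradation genes. B cells that become plasma cells enlarge their ER through XBP1, which is activated by IRE1.

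Cells were classed by unique molecular identifiers (UMIs, counted RNA molecules) of 1 or 2 marker genes. Plasma cells had at least 5 UMIs of Jchain, which links antibody units into polymers, and at least 3 of Mzb1, a co-chaperone of antibody assembly. B cells had at least 2 UMIs of Ms4a1, plasmacytoid cells at least 3 of Siglech, myeloid cells at least 10 of Lyz2, distal tubule cells at least 3 of Slc12a3, and proximal tubule cells at least 2 of Slc34a1 and 5 of Miox. Only cells passing 1 gate were used. Because Jchain and Mzb1 chose the plasma cells, their levels there are a description, and the other 44 members carry the comparisons.

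The 5 libraries held 15333445 to 45309178 UMIs, and 21708 cells were used, of which 12412 fell in 1 class. There were 90 plasma cells, 14 to 23 per mouse, with 114473 to 198494 UMIs per mouse. B cells numbered 1116, plasmacytoid cells 33, myeloid cells 811, proximal tubule cells 9558 and distal tubule cells 804. All 13 plasma cell markers, which include the members Fkbp11 and Derl3, were detected in the plasma class, at a summed 6630 to 7988 CPM (UMIs per 1000000 UMIs of the class) against 434 to 544 in B cells. The sum was led by Xbp1 (mean 2862 CPM) and Derl3 (1158 CPM). Of the 13, 12 were called higher in plasma than in B cells and 1 lower. Cd38 went the other way, at 0 to 17.5 CPM in plasma cells and 81.2 to 121 CPM in B cells. Of 13 B cell markers, 11 were detected in plasma cells, at a summed 9181 to 13335 CPM against 31092 to 39838 CPM in B cells, most of it from Cd74 (mean 7321 CPM) and Cd79a (2156 CPM), while Cd22 and Cr2 were at 0. Of 12 plasmacytoid markers, 9 were detected, at a summed 2140 to 4299 CPM against 2658 to 3419 CPM in B cells, most of it from Ly6d (mean 1751 CPM) and Bst2 (872 CPM), while Siglech, Spib and Cd209d were at 0. The myeloid marker Lyz2 was at 7.80 to 42.7 CPM in plasma cells. The summed myeloid list, with all 13 genes detected, was at 2654 to 7266 CPM in plasma cells against 408 to 1666 in B cells, most of it from Ly6c2 (838 to 5674 CPM) and Cst3 (1238 to 1634 CPM), and the part of these 3 lists in the results was not tested. Of 115 cells that passed the plasma gate, 25 also passed another gate and were left out. Across libraries 65 barcodes recurred, 0 of them in plasma cells. Immunoglobulin heavy and light chain genes were not analysed here, and the UMI totals do not include them.

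The secretory members took up a far larger part of the counted UMIs in plasma cells than in any other class. These totals leave out immunoglobulin chain genes, so shares and CPM are of the remaining UMIs. Leaving those genes out raises the values of a class by more, the more immunoglobulin RNA it holds. The size of this was not measured. Summed over the 44 members, plasma cells of saline mice 1 and 2 gave 4.17% and 4.89% of their UMIs, and those of FMT mice 1 to 3 gave 3.80%, 4.83% and 5.76%. B cells gave 0.388% and 0.376% in the saline mice, and 0.395%, 0.454% and 0.413% in the FMT mice. The lowest plasma value thus lay above the highest B value. The mean over mice was 4.69% ± 0.754 (SD, n = 5) in plasma cells and 0.405% ± 0.0302 (SD, n = 5) in B cells, an 11.6-fold difference. Plasmacytoid cells, which secrete interferon, came next with 0.896% ± 0.0583 (SD, n = 5), and the plasma mean was 5.23-fold above theirs. Myeloid cells gave 0.483% ± 0.021, distal tubule cells 0.388% ± 0.0264 and proximal tubule cells 0.318% ± 0.0262 (SD, n = 5 each). Jchain and Mzb1 alone made up another 10.1% to 15.6% of plasma cell UMIs, against 0.0428% to 0.0584% in B cells.

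**Figure D1:**
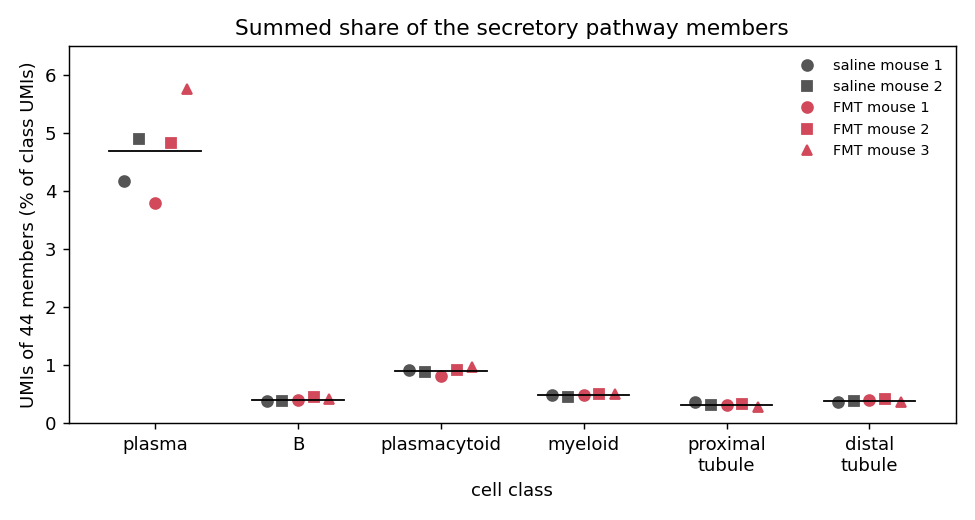
UMIs of the 44 members as a percentage of all counted UMIs of a class, without immunoglobulin chain genes (y axis), in 6 cell classes (x axis), 1 point per mouse, grey for saline and red for FMT, with a line at the mean of 5 mice. Plasma cells lie between 3.80% and 5.76%, and every other class lies below 1%.

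Single cells showed the same separation. Plasma cells had a median of 4.15% of their UMIs in the 44 members, from 1.10% to 10.3%, at a median depth of 8558 UMIs. B cells had a median of 0.391%, from 0.0783% to 1.77%, at a median depth of 3011 UMIs. Only 3 of 1116 B cells (0.269%, exact 95% binomial interval 0.0555% to 0.784%, counting error only) lay above the lowest plasma cell, as did 5 of 33 plasmacytoid, 11 of 811 myeloid, 10 of 9558 proximal and 10 of 804 distal cells. None of these 5 classes had a cell at the plasma median, with a count of 0 in each. Around the gate both the share and the depth differed. The 7 plasma cells at the edge of the gate, with Jchain at 5 to 9 or Mzb1 at 3 to 5 UMIs, had a median of 2.38%, and the 83 beyond it 4.18%. Their median depths were 1839 and 8805 UMIs. Outside it, 23 cells with enough Jchain but under 3 Mzb1 UMIs had a median of 1.55%, at a depth of 1891 UMIs. Another 138 cells with at least 3 Mzb1 but at most 1 Jchain UMI had 0.372%, near the B cell median. The part of depth in these shares was not tested. The 11 cells that passed the plasma and B gates together had 4.11%.

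**Figure D2:**
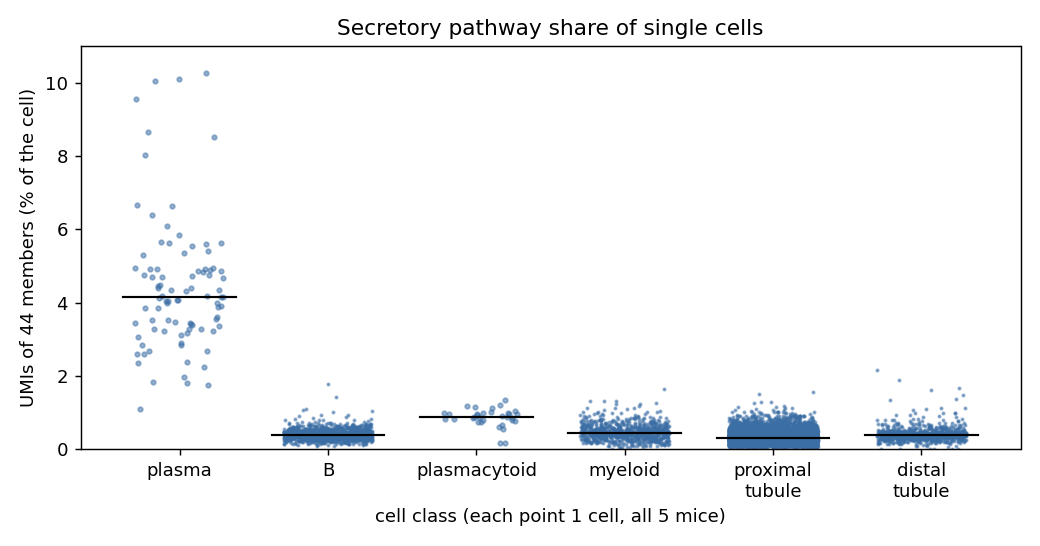
Percentage of a cell's UMIs that fell in the 44 members (y axis) for every cell of 6 classes (x axis), all 5 mice together, with a line at the median. Plasma cells spread from 1.10% to 10.3% around a median of 4.15%, and no cell of another class reaches that median.

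Plasma cells were compared with B cells of the same mice on UMI sums per mouse, with the mouse as a block. A gene was called at an edgeR adjusted p under 0.05, and fold changes are log2 values of plasma over B. Of 44 members, 42 passed the filter on low counts and all 42 were called higher in plasma cells, with a median of 3.45, whereas 27.8% of the 3250 genes tested were called higher and the median gene was at -0.11. Expression in plasma cells could itself carry a gene past the filter, since 21 members were below its cut (36.7 CPM) in at least 1 B cell sum. Without any filter all 44 members entered and 42 were called higher, 41 of them also called with it, against 8.37% of 14319 genes. Without TMM scaling the split of all called genes moved from 904 higher and 940 lower to 729 higher and 1227 lower, the median gene from -0.11 to -0.30 and the members' median from 3.45 to 3.25.

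**Figure D3:**
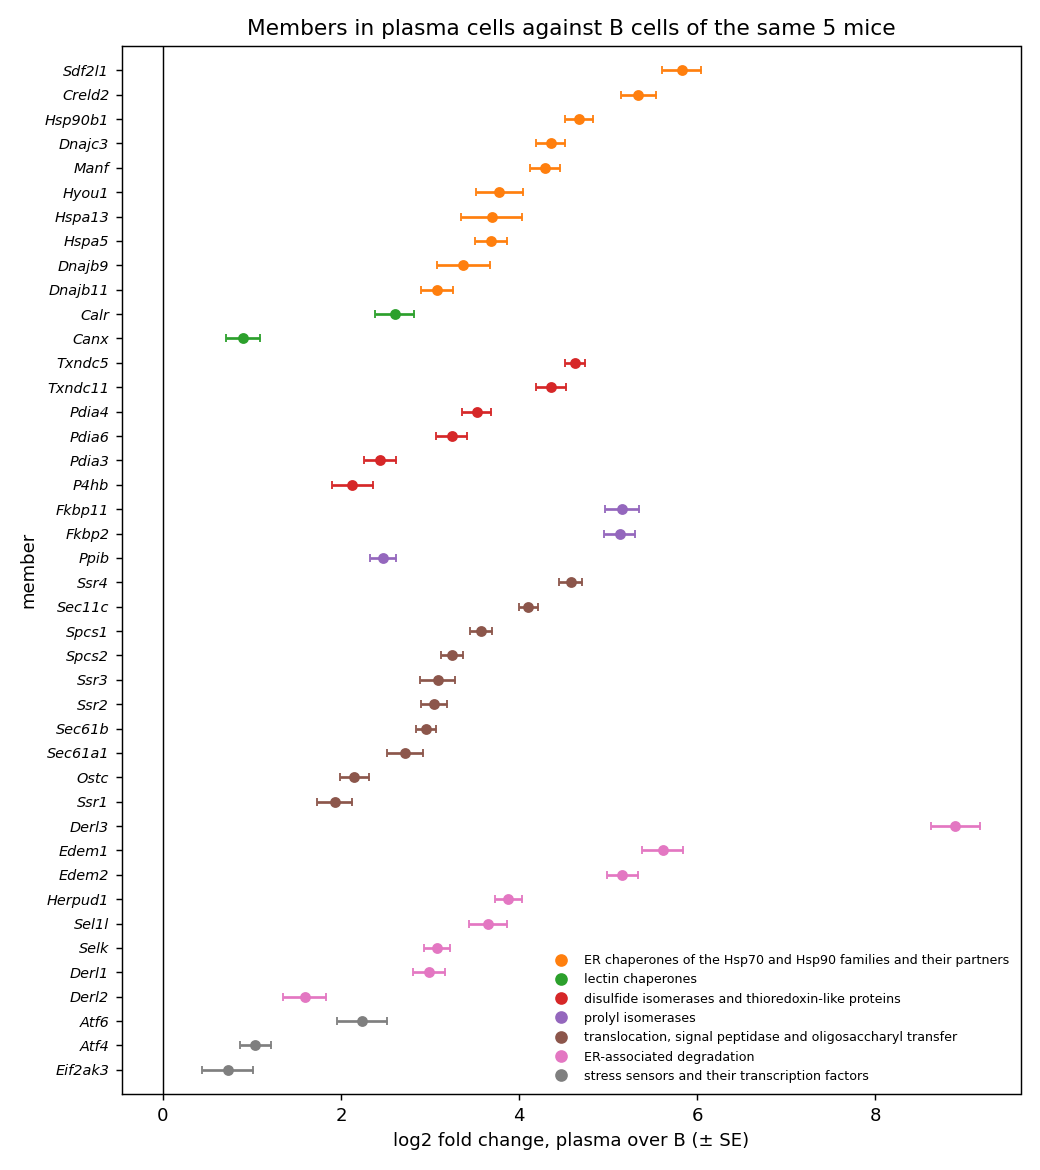
Log2 fold change of plasma over B cells (x axis, bars are the SE of the fit) for the 42 members past the filter (y axis), coloured by role. Derl3 stands furthest out at 8.90, and Eif2ak3, Canx and Atf4 lie lowest, at 0.73 to 1.04.

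The luminal chaperones of the Hsp70 and Hsp90 families and their partners were higher in plasma cells for 10 of 10 members, with a median log2 change of 4.03. Sdf2l1, a partner of the chaperone BiP, stood at 629 and 1068 CPM in plasma cells of the saline mice and at 555, 910 and 1085 CPM in those of the FMT mice, against 9.90 to 30.2 CPM in B cells. The classes did not overlap, and the log2 change was 5.82 ± 0.22 (SE), edgeR adjusted p = 2.3e-12. Creld2, an ER stress-induced disulfide isomerase-like protein, read 987, 1270, 528, 1087 and 983 CPM in plasma cells in the same order of mice, against 23.5 to 28.7 CPM in B cells, a log2 change of 5.34 ± 0.20. Hsp90b1, the ER-resident Hsp90 known as GRP94, read 5180, 4272, 3126, 4696 and 8179 CPM against 180 to 270 CPM, a log2 change of 4.67 ± 0.16. For both genes the lowest plasma mouse was at least 11.6-fold above the highest B mouse. Hspa5, which encodes BiP, the main Hsp70 of the ER, ranged from 922 to 2997 CPM in plasma cells and from 124 to 199 CPM in B cells (log2 3.69 ± 0.18). Its DnaJ partners Dnajc3 (4.35), Dnajb9 (3.37) and Dnajb11 (3.08), the nucleotide exchange factor Hyou1 (3.78), the Hsp70-like Hspa13 (3.69) and the secreted stress factor Manf (4.29) were called higher too, by the log2 changes in brackets.

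Both lectin chaperones, which hold glycoproteins by their sugars, were called, but they differed in size. Calr, the soluble calreticulin, stood at 454, 761, 433, 666 and 1054 CPM in plasma cells and at 89.6 to 179 CPM in B cells, with no overlap (log2 2.60 ± 0.22). Canx, the membrane-bound calnexin, stood at 131, 75.6, 144, 147 and 109 CPM in plasma cells and at 90.4, 51.2, 65.0, 86.4 and 78.0 CPM in B cells. The classes overlapped across mice, although plasma cells were above B cells in each of the 5 mice (log2 0.90 ± 0.19, edgeR adjusted p = 0.000647). Its plasma mean was 0.938 times the mean in proximal tubule cells, with overlap between mice.

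The 6 disulfide isomerases and thioredoxin-like proteins, which form and reshuffle disulfide bonds, were all higher, with a median of 3.38. Txndc5 read 2210 and 3118 CPM in plasma cells of the saline mice and 3859, 3450 and 3223 CPM in those of the FMT mice, against 115 to 166 CPM in B cells (log2 4.63 ± 0.11). Txndc11 read 419, 554, 505, 501 and 585 CPM against 23.2 to 37.6 CPM (4.36 ± 0.17). Pdia4 read 760, 1375, 805, 1270 and 1452 CPM against 75.4 to 130 CPM (3.52 ± 0.16), and no class overlap was seen for any of these genes. Pdia6 (3.25), Pdia3 (2.44) and P4hb (2.13) followed. P4hb, the classical protein disulfide isomerase, was also well expressed outside the B lineage, and its plasmacytoid mean of 158 CPM lay above the plasma mean.

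The 3 prolyl isomerases, which speed the turning of proline bonds, split in the same way. Fkbp11 stood at 288, 408, 389, 434 and 406 CPM in plasma cells with the lowest mouse 19.2-fold above the highest B cell mouse (log2 5.16 ± 0.19), and it was at 0 in plasmacytoid cells of all 5 mice. Fkbp2 stood at 1398, 1547, 1172, 1582 and 1951 CPM against 33.4 to 82.3 CPM (5.13 ± 0.17). Ppib, cyclophilin B, stood at 1179, 1804, 1655, 1795 and 2794 CPM against 312 to 403 CPM, a smaller log2 change of 2.47 ± 0.15 from a higher B cell level.

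The 10 members of the entry machinery were all higher, with a median of 3.07. Ssr4, a subunit of the translocon-associated protein complex, read 4691, 4912, 3654, 4226 and 4589 CPM in plasma cells and 167 to 230 CPM in B cells (log2 4.58 ± 0.13). Sec11c, a catalytic subunit of signal peptidase, read 3739, 3748, 3493, 3963 and 4464 CPM against 228 to 274 CPM (4.11 ± 0.10). Spcs1, an accessory subunit of the same enzyme, read 1520, 1219, 1260, 1460 and 1272 CPM against 110 to 147 CPM (3.58 ± 0.12). The plasma cells of different mice lay close together for these genes, and none overlapped with B cells. Subunits of 1 complex did not move by equal amounts: in the translocon-associated complex Ssr3 changed by 3.09, Ssr2 by 3.05 and Ssr1 by 1.93. The channel subunits Sec61b and Sec61a1 changed by 2.95 and 2.72, Spcs2 by 3.25, and Ostc, a subunit of the sugar-transferring complex, by 2.15.

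Degradation genes held the widest range. Derl3, a derlin of the retrotranslocation machinery, gave 830 and 1577 CPM in plasma cells of the saline mice and 994, 1057 and 1335 CPM in those of the FMT mice. B cells gave 2.48, 0, 2.32, 4.16 and 2.89 CPM, 9 UMIs in all 1116 cells against 931 UMIs in 90 plasma cells. The log2 change of 8.90 ± 0.27 gave Derl3 rank 4 of 3248 genes, whereas its paralogues Derl1 and Derl2 changed by 2.99 and 1.59. Edem1, which selects misfolded glycoproteins for degradation, read 629, 1411, 1033, 1136 and 1171 CPM against 16.2 to 43.3 CPM (5.61 ± 0.23). Its relative Edem2 read 603, 1159, 950, 1081 and 1116 CPM against 20.2 to 42.5 CPM (5.16 ± 0.18). The membrane adaptors Herpud1 (3.88) and Sel1l (3.65) and the selenoprotein Selk (3.08) were higher too. Of the 42 members, 10 were among the 50 genes with the highest fold change and 22 among the first 100.

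The sensors and their transcription factors changed least, with a median of 1.04 over the 3 tested of 5. Atf6 stood at 122, 95.7, 55.5, 104 and 85.8 CPM in plasma cells and at 13.7 to 27.2 CPM in B cells (log2 2.24 ± 0.28). Atf4, the effector of the PERK branch, stood at 288, 307, 250, 195 and 320 CPM against 139, 116, 191, 111 and 202 CPM, with overlap between classes (1.04 ± 0.17). Eif2ak3 stood at 26.2, 50.4, 66.6, 55.0 and 31.2 CPM against 37.1, 28.7, 45.2, 29.2 and 20.2 CPM, and its classes overlapped too. Its log2 change of 0.73 ± 0.29 passed narrowly (edgeR adjusted p = 0.0414), and this call was lost with DESeq2 (adjusted p = 0.157), without TMM, without the filter, with lower gates, without the mouse block and without FMT mouse 2 or FMT mouse 3. Ern1 and Ddit3 did not pass the filter. Without it Ern1 was called (log2 2.65 ± 0.99, edgeR adjusted p = 0.0374) on only 10 UMIs in all plasma cells and 7 in all B cells, and Ddit3 was not (0.46 ± 0.39, edgeR adjusted p = 0.519). Ddit3, which encodes the stress-induced factor CHOP, had 26 UMIs in plasma cells, at 0 to 66.6 CPM, and 16.1 to 28.9 CPM in B cells.

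**Figure D4:**
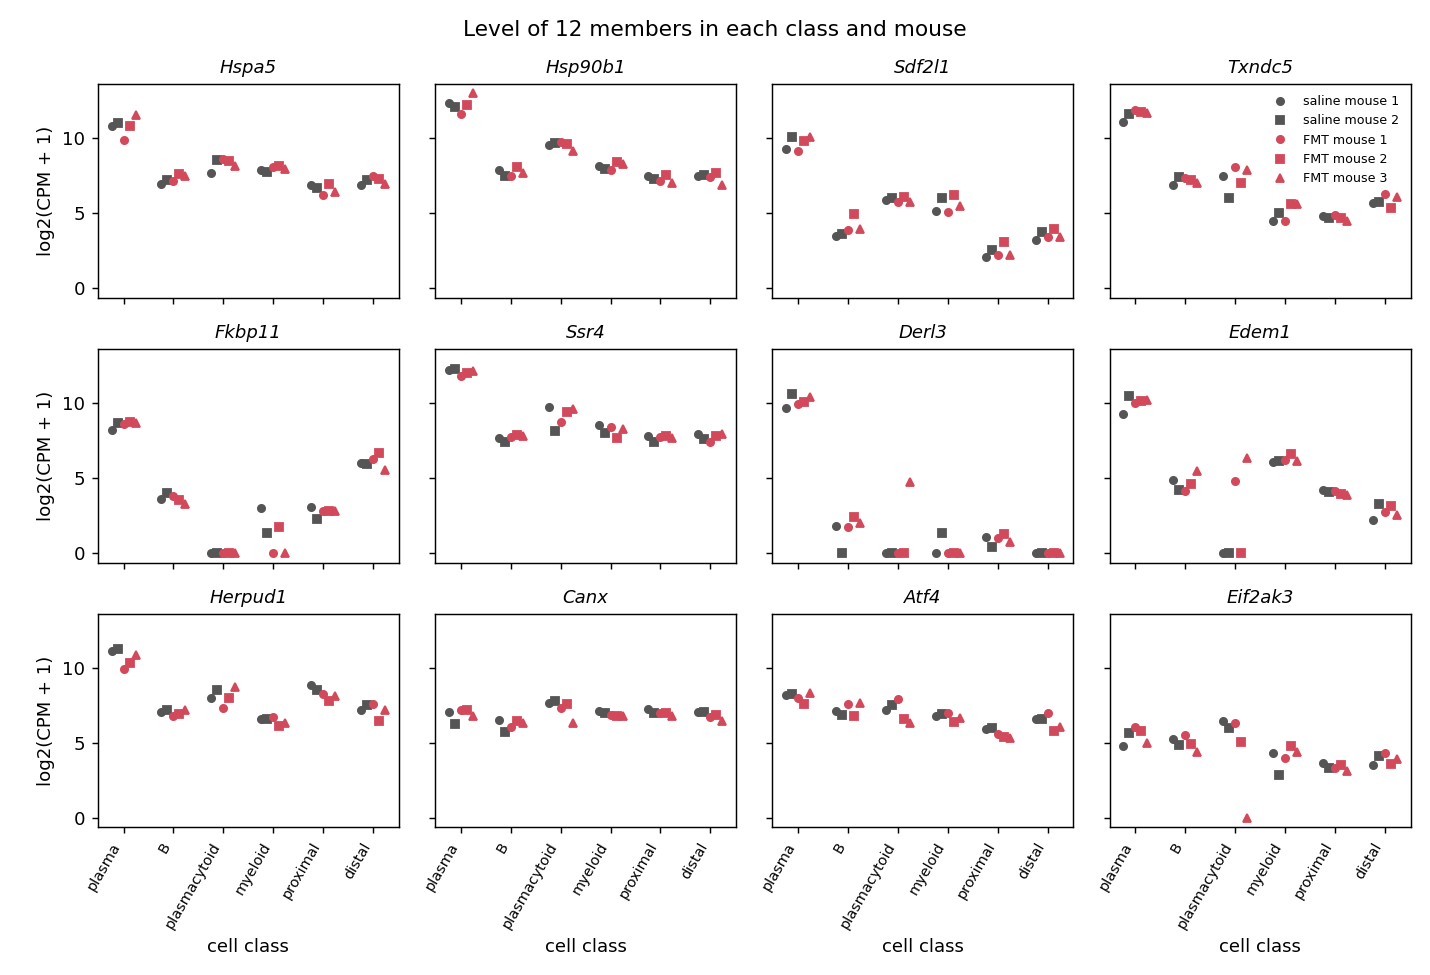
Level of 12 members as log2(CPM + 1) (y axis) in 6 cell classes (x axis), 1 point per mouse, grey for saline and red for FMT. Plasma cells stand apart from every class for Hspa5, Hsp90b1, Sdf2l1, Txndc5, Fkbp11, Ssr4, Derl3 and Edem1, and overlap with B cells for Canx, Atf4 and Eif2ak3.

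Short promoter elements of the unfolded protein response were searched in RefSeq windows (GRCm38.p6) from 250 bases before to 50 after each start, found for 36 of the 46 members. Derl1, Mzb1, Sec11c, Ostc, Hspa13, Atf6, Sec61a1, Ssr2, Hyou1 and Manf were not matched. The ER stress response element (ERSE: CCAAT, then 9 bases of any kind, then CCACG), which ATF6 binds together with NF-Y, was sought on both strands, as were the others. It lay in the windows of 8 of the 36 members, which had 43 windows together, and in 0.119% of all 32851 windows. A member counted with a match in any of its windows, while the percentages are per window, so the units differ. ERSE-II (ATTGG and CCACG with 1 base between, 0.0365% of windows) was in Herpud1 and Dnajb11. The unfolded protein response element (UPRE, TGACGTGG, 0.676%) was in Txndc5 and Txndc11, and the amino acid response element bound by ATF4 (CARE, TGATGCAA, 0.895%) in Herpud1. ERSE and ERSE-II share CCACG, and the UPRE holds its reverse complement, CGTGG. Shown here, in gene direction with the elements in capitals, are stretches of chaperones and degradation genes that rose strongly, and of Canx, which rose little and holds the same element.
Hspa5, chr2:34772010-34772058, plus strand: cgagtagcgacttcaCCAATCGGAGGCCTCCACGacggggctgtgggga
Hsp90b1, chr10:86705623-86705671, minus strand: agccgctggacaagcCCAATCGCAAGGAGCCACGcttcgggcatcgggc
Derl3, chr10:75893227-75893275, plus strand: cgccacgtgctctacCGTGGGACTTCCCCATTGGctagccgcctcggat
Creld2, chr15:88819505-88819553, plus strand: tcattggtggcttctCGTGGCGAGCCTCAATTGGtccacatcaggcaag
Canx, chr11:50325785-50325833, minus strand: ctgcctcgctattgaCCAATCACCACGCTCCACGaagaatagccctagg
Txndc5, chr13:38528030-38528067, minus strand: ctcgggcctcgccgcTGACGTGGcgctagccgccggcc
Herpud1, chr8:94386302-94386402, plus strand: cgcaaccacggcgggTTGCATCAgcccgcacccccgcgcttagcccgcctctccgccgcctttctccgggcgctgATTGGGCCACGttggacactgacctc
In Derl3 and Creld2 the ERSE reads on the opposite strand, as does the CARE of Herpud1. The 8 members with an ERSE (Calr, Canx, Creld2, Derl3, Dnajc3, Hsp90b1, Hspa5 and Pdia6) had log2 changes of plasma over B from 0.90 to 8.90, median 4.02, and the 25 tested members whose windows lacked it had a median of 3.37. A match is a description of the letters and not of binding, and members whose windows hold none may carry elements elsewhere.

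Among other genes of the same pathways, most of those past the low count filter were called higher in plasma cells. The background was 27.8% of all genes tested. Expression in plasma cells could itself carry a gene past this filter, and counts without the filter are not given for these lists. The lists are therefore a description and not separate support. Of 13 unfolded protein response regulators, 5 passed the filter, 4 were called higher and 1 lower. Xbp1 stood at 2236 and 2383 CPM in plasma cells of the saline mice and at 3010, 3792 and 2888 CPM in those of the FMT mice, against 23.1 to 47.9 CPM in B cells (log2 6.35 ± 0.16). Creb3l2 (4.72), Atf6b (1.87) and Creb3 (1.36), membrane-bound transcription factors, were higher as well, and Ppp1r15a, which helps to end the PERK signal, was lower (-0.75 ± 0.19). All 5 tested of 19 ATF4 target genes were higher, with a median of 2.12, led by the amino acid transporter subunit Slc3a2 (3.18), Phgdh (2.38), Nars (2.12) and Cebpb (1.67). Among other translocon, signal recognition and sugar transfer genes, 22 of 23 tested were higher (list of 27, median 2.19), with Tram2 (4.86), Spcs3 (4.16), Srprb (3.36) and Rpn1 (3.34) in front. Other folding and glycan enzymes were higher for 8 of 9 tested (list of 22, median 2.67), led by Prdx4 (4.81), Erlec1 (3.61), Man1b1 (3.38) and Os9 (2.73). Other degradation and ufmylation genes were higher for 14 of 16 (list of 20, median 1.76), among them Ube2j1 (3.73), Vimp (3.13) and Ubxn4 (2.47). For vesicle traffic between ER and Golgi, all 29 tested of 37 genes were higher (median 2.12), with Arfgap3 (4.60), Lman1 (4.54), Ergic1 (4.49) and Tmed10 (3.40) at the top.

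Across all 6 classes, 39 of the 44 members had their highest mean in plasma cells, and the other 5 (Canx, P4hb, Ern1, Eif2ak3 and Ddit3) in plasmacytoid cells. For these 5 the plasma mean was 0.71 to 0.88 times the plasmacytoid mean. The plasmacytoid means of Ern1, Ddit3 and Eif2ak3 rested on few UMIs, at 16.8, 41.6 and 52.4 CPM. Without the filter on low counts, Canx, Ern1, Eif2ak3 and Ddit3 had log2 changes of plasma over plasmacytoid cells of 0.27 to 0.59, none called. The lowest plasma mouse lay above the highest mouse of B cells for 40 members, of myeloid cells for 38, of proximal cells for 41, of distal cells for 41 and of plasmacytoid cells for 32. These counts and that of the highest means were made for the members only, so no share over all genes stands beside them. Of the 39, plasmacytoid cells were the next class for 27. With only 5 to 8 plasmacytoid cells and 30768 to 38318 UMIs per mouse, the direct comparison used a minimum of 5 cells, set after the numbers were seen. Of 35 members tested, 33 were higher in plasma cells, where 24.3% of the 971 genes tested were, and the median was 2.53. Members that passed this filter only through plasma cells had to differ. Without any filter 37 of 44 were called higher, against 8.02% of 12155 genes, with the members' median at 3.10 and the median gene moved from 0.02 to 0.59. Txndc5 (log2 4.21 ± 0.25), Sdf2l1 (3.89 ± 0.26) and Pdia4 (3.74 ± 0.29), with 31, 10 and 15 UMIs in all plasmacytoid cells, lay well apart. Fkbp11, Derl3 and Edem1, with 0, 1 and 4 UMIs there, are given no fold. Sec61b, the channel subunit, differed by 0.86 ± 0.12, from 1092 to 1658 CPM in plasmacytoid cells and 2132 to 2766 CPM in plasma cells. Canx (-0.44 ± 0.33, edgeR adjusted p = 0.294) and Ssr1 (0.15 ± 0.33, edgeR adjusted p = 0.733) were not called.

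Some members were also expressed in tubule cells, though none of the 44 had its highest mean there. Herpud1 stood at 217 to 459 CPM in proximal tubule cells, above the 108 to 145 CPM of B cells, and proximal cells were the next class after plasma cells for this gene. Fkbp11 had a mean of 69.2 CPM in distal tubule cells, the next class for it. Derl3 was at 0 UMIs in distal cells and at 0.315 to 1.41 CPM in proximal cells, where Jchain was at 5.42 to 15.3 CPM.

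FMT was then compared with saline within each class, and no member was called in any class. The fits could miss moderate differences. In simulated data with an assumed spread between mice, 20% of 2-fold changes were called in plasma cells, 25% in B cells and 23% in proximal cells. The assumed spread was the same for every gene and class and was not estimated from these data. These shares therefore need not be the sensitivity of the fits here. In plasma cells 43 members passed the filter, 0 were called and 0% of the 2149 genes tested were called. Their median log2 change of FMT over saline was 0.05, with 26 members above 0 and 17 below, and the median gene was at 0.01. The sign of this median changed with the mice used. Dropping saline mouse 1 gave -0.11, and dropping saline mouse 2 gave 0.30. When FMT mouse 1, 2 or 3 was dropped, it was 0.19, 0.03 or -0.08. An unadjusted p under 0.05 was found for 1 member (2.33%) and for 108 of all genes (5.03%). DESeq2 called 0 members and 1 gene. The member with the smallest p was Herpud1, at 2254 and 2459 CPM in the saline mice and at 999, 1319 and 1865 CPM in the FMT mice. These values did not overlap, but the log2 change of -0.83 ± 0.26 missed the threshold (edgeR adjusted p = 0.852). Pdia6, next in order, read 524 and 776 CPM against 761, 1020 and 1319 CPM, with overlap (0.58 ± 0.29, edgeR adjusted p = 0.991). The summed share was 4.53% ± 0.514 (SD, n = 2) with saline and 4.79% ± 0.981 (SD, n = 3) with FMT, so the groups overlapped. Cycling cell markers in plasma cells, all 10 detected, summed to 166 and 35.3 CPM in the saline mice and to 772, 1337 and 78.0 CPM in the FMT mice, and T cell markers, 12 of 12 detected, to 498 and 519 CPM against 400, 61.1 and 31.2 CPM. Their part in these values was not tested.

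In B cells 0 of 42 members passing the filter were called, against 0.0709% of 7055 genes, with a median of 0.08. An unadjusted p under 0.05 was found for 0 members and for 6.68% of all genes. The median was 0.13 when saline mouse 1 was dropped, 0.16 when FMT mouse 1 was, and 0.04 when FMT mouse 2 was. Dnajb11 read 50.8 and 41.2 CPM with saline and 54.5, 72.9 and 78.0 CPM with FMT (log2 0.52 ± 0.24, edgeR adjusted p = 0.745). Sdf2l1 read 9.90 and 11.2 CPM against 13.9, 30.2 and 14.4 CPM (0.93 ± 0.46, edgeR adjusted p = 0.776). The groups did not overlap for these genes, but the differences did not pass the test. Proximal tubule markers in B cells, all 13 detected, summed to 811 and 701 CPM with saline and to 2158, 1223 and 1130 CPM with FMT. Of these, 9 passed the filter, all 9 above 0, with a median log2 change of 0.85. Among them 1 was called higher, out of 2 genes called higher in this fit. The part of these markers was not tested. A difference in the FMT effect between plasma and B cells was called for 0 of 45 members tested, against 0.0463% of 4323 genes, and 3 members (6.67%) had an unadjusted p under 0.05, as did 258 of all genes (5.97%). The smallest p values of this interaction belonged to Herpud1 (-0.64 ± 0.25, edgeR adjusted p = 0.598) and Ssr4 (-0.48 ± 0.20, edgeR adjusted p = 0.78).

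Proximal tubule cells, the class with the most UMIs in sum, had all 46 members past the filter and 0 called, against 0.0337% of 11873 genes. Here 7 members (15.2%) had an unadjusted p under 0.05, and all 7 were lower with FMT. Of all genes, 1288 (10.8%) had such a p, and 54.3% of these were lower. Atf4 read 60.6 and 61.9 CPM with saline and 48.4, 41.9 and 39.8 CPM with FMT (log2 -0.48 ± 0.13, edgeR adjusted p = 0.296). Sec61a1 read 34.1 and 30.6 CPM against 24.1, 24.8 and 21.8 CPM (-0.45 ± 0.13, edgeR adjusted p = 0.306). Neither gene overlapped between groups, and neither passed the test. The other 5, chosen after their values were seen, were Herpud1 (-0.60), Hyou1 (-0.57), Creld2 (-0.45), Txndc11 (-0.41) and Ssr3 (-0.38). Herpud1 read 459 and 366 CPM with saline and 306, 217 and 286 CPM with FMT. Over all 46 members the median was -0.09, with 28 below 0. It was 0.04 when saline mouse 1 was dropped and -0.20 when saline mouse 2 was. Among markers of other cells in this class, 9 of 10 tested B cell genes and 9 of 11 tested myeloid genes were also below 0, and the summed B cell list, 13 of 13 genes detected, ranged from 101 to 292 CPM with saline and from 70.5 to 165 CPM with FMT, the myeloid list, also complete, from 326 to 488 CPM and from 289 to 400 CPM. Their part was not tested.

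In myeloid cells 0 of 40 members were called, against 0.0535% of 5610 genes. The median of 0.05 became 0.009 or 0.09 when saline mouse 1 or 2 was dropped, and 0.13, 0.03 or -0.015 when FMT mouse 1, 2 or 3 was. Edem2 read 32.1 and 38.2 CPM with saline and 39.6, 57.0 and 58.3 CPM with FMT (log2 0.50 ± 0.32), and Canx differed by -0.32 ± 0.23. In distal cells 0 of 42 members were called, against 0.17% of 8214 genes. Their median of 0.06 became 0.02 or 0.09 when saline mouse 1 or 2 was left out, and 0.17 when FMT mouse 3 was. Canx read 131 and 136 CPM against 104, 113 and 86.3 CPM (-0.38 ± 0.20), and Selk differed by 0.29 ± 0.20. No member of either class had an unadjusted p under 0.05 (a count of 0 in both), and DESeq2 called 0 members too. Of all genes, 3.67% in myeloid and 4.38% in distal cells had such a p. The 6 further pathway lists gave 0 calls in each of the 5 classes.

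**Figure D5:**
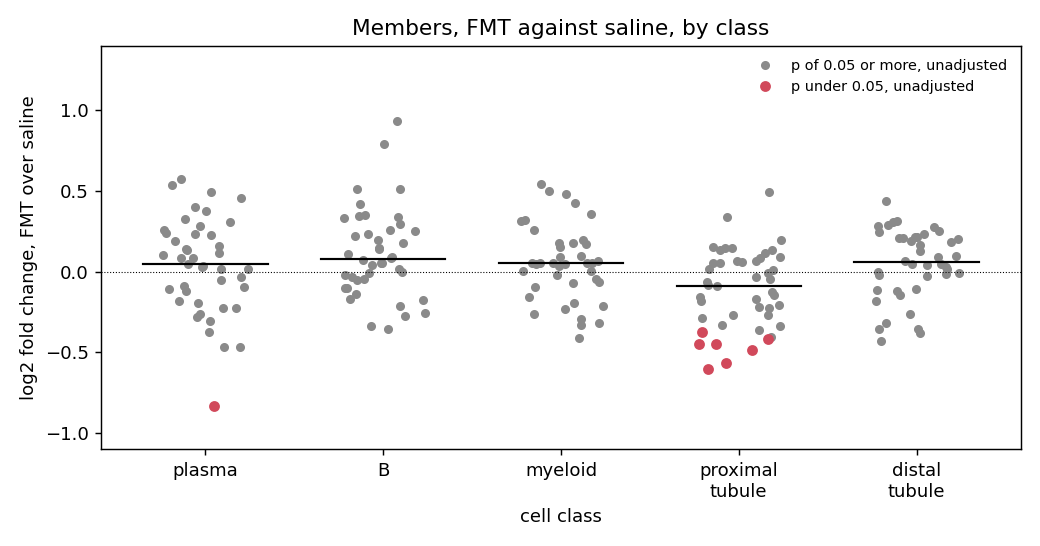
Log2 fold change of FMT over saline (y axis) for every member past the filter in 5 cell classes (x axis), 1 point per member, red where the unadjusted p was under 0.05, with a line at the median. Medians lie between -0.09 and 0.08, and the 7 red points of proximal tubule cells and the 1 of plasma cells are below 0.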

How the data were processed

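The deposited matrices hold raw UMI counts per gene and barcode, which were used as deposited by the authors. Per the submitters' processing notes the reads went through Cell Ranger 2.1.1 with the mm10 build, while the matrix headers, per the file headers, name Cell Ranger 4.0.0. The labels' protocols name an RNA kit and an mRNA library kit beside a droplet description. Kept barcodes (22591) had 200 genes or more and less than 50% of UMIs from mitochondrial genes, and 883 with the highest Scrublet scores (scanpy 1.11.5) were removed as doublets, at 0.8% per 1000 cells of a library. Cells were gated and their counts summed per mouse and class. CPM were computed from those sums. Genes were tested with edgeR 4.0.16 (quasi-likelihood F test, TMM scaling, low count filter, Benjamini-Hochberg adjustment over all genes tested, R 4.3.3), in mice with at least 10 cells of a class. DESeq2 1.42.0, other gates, filters and left-out mice were alternatives. The fits were tested on data simulated with an assumed spread between mice, the same for every gene and class and not estimated from these data. For plasma against B, 73.7% of 2-fold and 100% of 4-fold changes were called. For FMT against saline, 4-fold changes were called for 96.4% in plasma, 92.4% in B and 99.5% in proximal cells, but 2-fold changes for 20%, 25% and 23%. The labels do not state separate cages or preparations, so p-values measure the spread between these samples, and the title codes, which differ between groups, are not explained. Replicate numbers were not used to pair mice in the main fits. Deviations of same-numbered mice correlated at 0.06 and -0.02 in plasma cells, at -0.18 and -0.09 in B cells and at -0.22 and -0.02 in proximal cells. With only 2 saline mice their deviations mirror each other, so these values cannot show whether mice were paired. The members and lists were chosen with earlier results of these data known. Per-mouse values are given for up to 3 members of each role with the largest fold change in plasma against B, and in each FMT comparison for the 2 with the smallest p, beside up to 4 called genes per direction of other lists, of which 1 is not reported here. Hspa5, Xbp1 and genes noted as such were added after values were seen. No member of the plasmacytoid class could be compared between FMT and saline, since each mouse had under 10 such cells. Promoter windows came from RefSeq, GRCm38.p6.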

Additional observations from a re-analysis of the deposited data

How the results depend on the processing

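Over 622 recalculated fold changes of members in plasma against B, 615 kept their direction and side of the threshold, 0 reversed and 7, all of Eif2ak3, lost the call, the lowest value being 0.47. The genes called there numbered 1844, 3082 without the filter and 1212 with B cells thinned to the plasma depth. Against plasmacytoid cells 495 genes were called and 1362 without the filter. Of the recalculated fold changes of members there, 512 kept their direction and side of the threshold, 9 lost the call and 2 reversed. The reversed values were Canx at 0.27 without the filter and Ssr1 at -0.035 without TMM. No member was called between FMT and saline under any alternative run, but counts of all genes moved, and the cause was not tested. In plasma cells they were 30 without the filter, 1 with DESeq2, 7 with the replicate block and 0 to 4 with 1 mouse left out. In B cells, from 5, they were 137, 11, 16 and 0 to 47, with 2 at lower gates, 3 at higher gates, 2 with doublets kept and 3 under 20% mitochondrial UMIs. In myeloid cells, from 3, they were 82, 7, 103 and 0 to 9, with 5 at lower and 1 at higher gates. In proximal cells, from 4, they were 163, 83, 74 and 1 to 23, with 0 at higher gates and 0 with doublets kept. In distal cells, from 14, they were 103, 9, 39 and 3 to 27. For the interaction, from 2, they were 34 without the filter, 1 with DESeq2, 0 at lower gates, 4 at higher gates, 0 with doublets kept and 0 to 15 with 1 mouse left out, and no replicate block beyond the mouse was fitted. Without the replicate block of mice, plasma against B gave 1785 genes. The replicate numbers of the labels were not used to pair mice in the main fits. Herpud1 in plasma cells ranged from -1.11 to -0.52 over its alternatives, with adjusted p from 0.103 with the replicate block to 1.00 with DESeq2. With a group of 1 mouse left, that mouse is assumed to vary like the others. The planned minimum of 10 plasmacytoid cells left no mouse, so those comparisons were not run as planned. Depth limits the low members: Ern1 and Ddit3 had 10 and 26 UMIs in plasma cells.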
